A study of Mus musculus with 6 samples.

Results

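Chemokines and chemokine receptors were followed in the brown adipose tissue of Cd36 null and wild type mice, a fat that burns fuel to make heat. The members were all probes whose platform annotation symbol starts with Ccl, Cxcl, Ccr or Cxcr followed by a digit, or is Cx3cl1, Cx3cr1, Xcl1 or Xcr1. This gave 79 probes of 54 genes, out of 45267 probes in the authors' table. They comprise 22 CC ligands, 12 CXC ligands, Cx3cl1, Xcl1 and 18 receptors. The Cd36 null group held 3 arrays and the wild type group held 3 arrays. Mice of both groups were male, 3 months old, on the C57BL6J background by their labels, and kept overnight without food. CD36 is a surface receptor that helps cells import fatty acids and that macrophages use to bind oxidised lipoprotein; the labels do not describe how the null allele was made. The labels do not tell whether each array stands for its own mouse, so p-values cover only sample-to-sample spread here, which may be technical.

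Chemokines are small secreted proteins that bind sulphated sugars on cells and matrix and guide leukocytes along their gradients. They are classed by the spacing of their first cysteines into CC, CXC, CX3C and XC ligands, and each acts through a few G protein-coupled receptors. Inflammatory chemokines are induced in macrophages and stromal cells by cytokines and microbial products, while homeostatic ones are made constantly to place lymphocytes, dendritic cells or progenitors in a tissue. In adipose tissue they are best known for drawing monocytes and T cells into the depot, and in mouse brown fat Cxcl14 is known as a factor secreted by thermogenically active cells.

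Values are the authors' log2 values, which differ from neqc normalisation with an offset of 50 by at most 0.024. A difference is the null mean minus the wild type mean of these values, and the offset shrinks it for dim probes. A probe counted as detected on an array when its deposited detection p lay under 0.05, and probes detected on at least 3 of the 6 arrays were tested. The adjusted p of every gene is from limma with Benjamini-Hochberg adjustment over all 17912 tested probes, and a probe past 0.05 is said to have risen or fallen. The 1 probe named Cd36 lay at background, with 5.85, 5.86 and 5.89 on the Cd36 null arrays and 6.27, 5.86 and 5.99 on the wild type arrays. Detection was reached on 0 null arrays and 1 wild type array, so the probe does not check the genotype labels. Between 18139 and 19199 probes were detected on the null arrays, against 16929 to 17035 on the wild type arrays. Precision is limited by having 3 arrays per genotype.

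Several inflammatory and lymphoid chemokine ligands were higher in Cd36 null brown fat, while Cxcl14 and Ccl27a were lower. Most receptors lay at background in both genotypes. Of the 33 tested member probes, which cover 25 genes, 12 rose and 2 fell, each under its own symbol; those of Ccl21a and Ccl21c may read the same transcripts. Over all tested probes 5.36% rose and 2.85% fell, 8.21% together. With neqc and an offset of 16, 12 member probes rose and 2 fell, against 5.05% and 2.23% of all probes. A probe can pass the detection filter through its bright genotype alone, and 5 of the 12 probes that rose were not detected on every wild type array. The median difference was 0.41 over the 33 tested member probes and -0.04 over all tested probes, but the filter shapes the first of these. Over the 20 member probes detected on all 6 arrays the median was -0.07, against -0.05 over all such probes. In a fit on such probes alone 7 of the 20 rose and 2 fell, where 5.2% of all probes rose and 3.38% fell, 8.57% together. Differences of the 12 that rose ran between 0.46 and 1.88. In tissue RNA, more cells that make a transcript and more RNA per cell cannot be told apart. The count of 14 member probes past the threshold was 7 without wild type replicate 2, with 5 higher and 2 lower, while over all probes it was 670 instead of 1470.

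**Figure D1:**
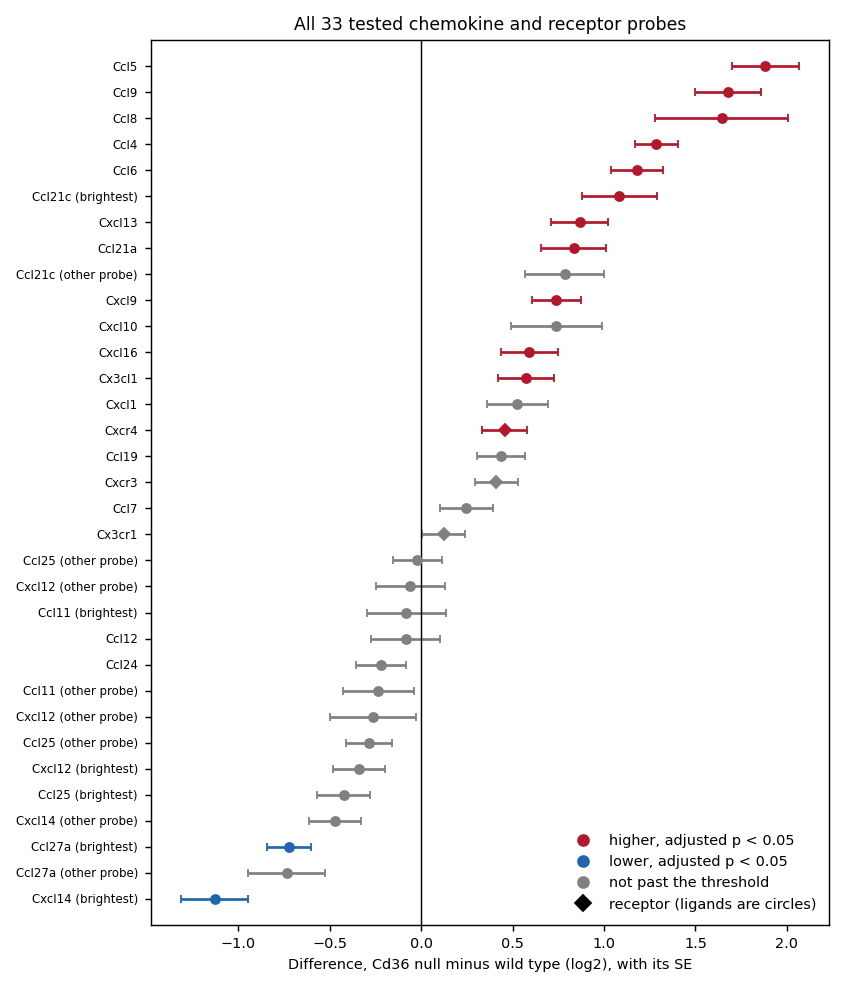
Difference of each of the 33 tested member probes, as null mean minus wild type mean in log2 units (horizontal axis), with its standard error; red points rose, blue points fell, grey points did not pass, and diamonds are receptors. Ccl5 stands highest at 1.88 and Cxcl14 lowest at -1.13.

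The inflammatory CC ligands Ccl5, Ccl9, Ccl8, Ccl4 and Ccl6 had the largest positive differences among the members. Ccl5, a ligand that draws T cells and monocytes, measured 8.16, 8.26 and 8.12 on Cd36 null replicates 1 to 3, against 6.02, 6.14 and 6.73 on wild type replicates 1 to 3. The null arrays lay close together and all above the wild type arrays, of which replicate 3 was the highest. The rise of Ccl5 was 1.88 ± 0.18 log2 (SE over 3 arrays a genotype, limma adjusted p = 0.000328), with detection on 3 null and 2 wild type arrays. Its size depended on the background treatment, at 2.56 with neqc and an offset of 16 and 1.38 without background correction. Ccl9, a rodent ligand of Ccr1, measured 9.08, 9.41 and 9.48 on the null arrays and 7.52, 7.40 and 8.01 on the wild type arrays. It was well detected on all 6 arrays and the genotypes lay 1.07 log2 apart at their closest. It rose by 1.68 ± 0.18 (adjusted p = 0.00063). Ccl4, a ligand made by activated macrophages and lymphocytes, measured 7.34, 7.34 and 7.29 on the null arrays and 5.96, 6.14 and 6.02 on the wild type arrays. It rose by 1.28 ± 0.12 (adjusted p = 0.000254). The wild type level of Ccl4 was near background, with detection on 1 of 3 arrays, and its difference was 2.00 with neqc and an offset of 16. A second, dimmer Ccl4 probe was detected on 2 null and 0 wild type arrays and was not tested.

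Ccl6 and Ccl8 followed the same direction with different spreads. Ccl6, a rodent CC ligand of macrophages and neutrophils, measured 7.10, 7.44 and 7.31 on the null arrays and 6.17, 5.91 and 6.24 on the wild type arrays. It rose by 1.18 ± 0.14 log2 (SE, adjusted p = 0.00104), or 1.82 with neqc and an offset of 16, and its groups did not overlap. Ccl8, which in the mouse acts through Ccr8, measured 8.23, 8.42 and 8.39 on the null arrays and 6.02, 6.33 and 7.76 on the wild type arrays. The null arrays agreed within an SD of 0.10, while wild type replicate 3 stood far above the other wild type arrays and gave that group an SD of 0.93. Ccl8 rose by 1.64 ± 0.36 (adjusted p = 0.0223). Its call ended without null replicate 2 (adjusted p = 0.0748), wild type replicate 1 (adjusted p = 0.0801) or wild type replicate 2 (adjusted p = 0.114), and with trend and robust estimation (adjusted p = 0.116). Without wild type replicate 3 its difference was 2.17. Of the 12 probes that rose, 8 had their highest wild type value on replicate 3.

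By gene order in RefSeq (GRCm38.p6), Ccl5, Ccl9, Ccl6, Ccl3 and Ccl4 are consecutive protein-coding genes on chromosome 11. Of these, the 4 tested genes all rose, where 6.36% of all tested genes rose. Of the 4, only Ccl9 was detected on all 6 arrays, and Ccl4, Ccl5 and Ccl6 could enter the test through the null arrays alone. Ccl3, an inflammatory ligand of macrophages, was detected on 1 null and 0 wild type arrays and was not tested. Another run on the same chromosome holds Ccl2, Ccl7, Ccl11, Ccl12, Ccl8 and Ccl1. There Ccl8 rose, whereas Ccl7, Ccl11 and Ccl12 did not pass, Ccl2 was detected on 1 null array, and Ccl1 was detected on none.

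Promoters are shown for Ccl9, Ccl6 and Ccl8, which rose and lie in these runs, for Cxcl9, the brightest member that rose, and for Cxcl14, which fell. Each is the 250 bases before the gene's start from RefSeq on GRCm38.p6, 5′ to 3′ along the gene. The regions are chr11:83578637-83578886 on the minus strand for Ccl9, chr11:83593088-83593337 on the minus strand for Ccl6, chr11:82114935-82115184 on the plus strand for Ccl8, chr5:92328080-92328329 on the minus strand for Cxcl9 and chr13:56296552-56296801 on the minus strand for Cxcl14. Capitals mark letters that match, on either strand, a kappaB pattern (GGG and CC parted by 5 bases), an interferon-stimulated response element (GAAA repeated after a gap of 2 bases), a gamma-activated site (TTC and GAA parted by 3 bases), an AP-1 site (TGANTCA) or a TATA box (TATAAA).
Ccl9: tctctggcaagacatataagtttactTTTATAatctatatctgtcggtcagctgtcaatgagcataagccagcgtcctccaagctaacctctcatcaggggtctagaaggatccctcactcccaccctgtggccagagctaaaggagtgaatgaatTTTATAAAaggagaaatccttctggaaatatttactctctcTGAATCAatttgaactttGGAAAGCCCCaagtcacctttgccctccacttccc
Ccl6: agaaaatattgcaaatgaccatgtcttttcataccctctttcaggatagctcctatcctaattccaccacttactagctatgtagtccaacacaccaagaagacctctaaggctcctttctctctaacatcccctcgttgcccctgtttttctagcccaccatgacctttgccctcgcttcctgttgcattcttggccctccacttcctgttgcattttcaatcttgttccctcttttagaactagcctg
Ccl8: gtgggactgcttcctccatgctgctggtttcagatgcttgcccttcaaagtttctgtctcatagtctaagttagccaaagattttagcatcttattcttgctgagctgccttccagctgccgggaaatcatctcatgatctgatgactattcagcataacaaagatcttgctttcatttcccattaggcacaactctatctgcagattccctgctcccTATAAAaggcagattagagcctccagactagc
Cxcl9: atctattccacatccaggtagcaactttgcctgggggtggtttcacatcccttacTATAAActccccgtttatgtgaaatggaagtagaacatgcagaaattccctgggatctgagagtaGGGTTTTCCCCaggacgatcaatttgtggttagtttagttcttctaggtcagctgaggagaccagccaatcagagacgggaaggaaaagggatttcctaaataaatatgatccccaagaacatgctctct
Cxcl14: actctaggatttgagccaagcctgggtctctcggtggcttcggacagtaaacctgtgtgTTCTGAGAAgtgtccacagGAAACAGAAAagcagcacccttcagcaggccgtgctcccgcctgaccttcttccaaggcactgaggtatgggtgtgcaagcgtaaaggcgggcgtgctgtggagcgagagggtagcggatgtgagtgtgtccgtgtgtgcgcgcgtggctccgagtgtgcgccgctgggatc

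The Ccl9 window held a kappaB match 35 to 26 bases before the start, an AP-1 match 53 to 47 bases before it and 3 TATA matches, of which 2 overlap. The Ccl8 window held a TATA match 32 to 27 bases before the start. The Cxcl9 window held overlapping kappaB matches between 130 and 120 bases before the start and a TATA match. The Cxcl14 window held an interferon-stimulated response element 172 to 163 bases before the start and a gamma-activated site 191 to 183 bases before it, and the Ccl6 window held none of the patterns. The RefSeq promoter table matched 40 of the 54 member genes. A kappaB match was present for 24 of these genes (60.0%), against 48.7% of all genes in that table. A TATA match was present for 12 of them (30.0%), against 14.3% of all genes, and a TATA match stood before 6 of the 8 matched genes that rose. Of those 8 genes, 3 had a kappaB match, 1 an AP-1 match, 0 an interferon-stimulated response element and 0 a gamma-activated site. Interferon-stimulated response elements were found for 3 genes (7.5%, against 3.46% of all genes), gamma-activated sites for 4 (10%, against 8.13%) and AP-1 sites for 5 (12.5%, against 7.82%). These matches describe letters and not binding.

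Ligands that organise lymphocytes in lymphoid tissue were also higher in Cd36 null fat. Ccl21a and Ccl21c, ligands of Ccr7 that guide dendritic cells and T cells to lymphatic vessels and lymph nodes, come from near-identical gene copies, so their probes cannot be assigned to a single copy. The Ccl21a probe measured 8.44, 7.92 and 8.58 on the null arrays and 7.42, 7.39 and 7.63 on the wild type arrays. The brighter Ccl21c probe measured 8.78, 7.99 and 8.69 on the null arrays and 7.55, 7.20 and 7.47 on the wild type arrays. On both probes null replicate 2 was the lowest null array and still lay above every wild type array. Ccl21a rose by 0.83 ± 0.18 log2 (SE, adjusted p = 0.0184) and Ccl21c by 1.08 ± 0.21 (adjusted p = 0.0108). The second Ccl21c probe differed by 0.78 ± 0.21 without passing (adjusted p = 0.0539). The call of Ccl21a ended without null replicate 3 (adjusted p = 0.0511), wild type replicate 1 (adjusted p = 0.0722) or wild type replicate 2 (adjusted p = 0.0929), and that of Ccl21c without wild type replicate 2 (adjusted p = 0.0671). Ccl19, the other Ccr7 ligand and the neighbour of Ccl21a on chromosome 4, measured 6.66, 6.36 and 6.47 on the null arrays and 6.03, 6.18 and 5.98 on the wild type arrays. Its groups did not overlap, yet its difference of 0.44 ± 0.13 did not pass (adjusted p = 0.0741). It passed with neqc and an offset of 16 (adjusted p = 0.0378), with median scaling (adjusted p = 0.0402) and with trend and robust estimation (adjusted p = 0.0452).

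Cxcl13, the Cxcr5 ligand that draws B cells into follicles and is also made by macrophages, measured 7.15, 7.07 and 7.40 on the null arrays and 6.32, 6.11 and 6.59 on the wild type arrays. All null arrays were above all wild type arrays. Cxcl13 rose by 0.87 ± 0.16 log2 (SE, adjusted p = 0.00843).

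Of the interferon-gamma-inducible ligands of Cxcr3, Cxcl9 was bright in both genotypes and Cxcl10 was dim. Cxcl9 measured 10.004, 10.10 and 10.31 on the null arrays and 9.47, 9.27 and 9.46 on the wild type arrays. The groups lay 0.53 apart at their closest, and Cxcl9 rose by 0.74 ± 0.13 log2 (SE, adjusted p = 0.00819), a call that ended without wild type replicate 2 (adjusted p = 0.0533). Cxcl10 measured 6.43, 6.66 and 7.51 on the null arrays and 5.90, 6.15 and 6.32 on the wild type arrays. Its null values were spread widely, with replicate 3 the highest, and the groups did not overlap. Its difference of 0.74 ± 0.25 equalled that of Cxcl9 in size and did not pass (adjusted p = 0.111). It passed without null replicate 1 (adjusted p = 0.0326) and with array weights (adjusted p = 0.0372). Cxcl11, the remaining ligand of this receptor, was detected on no array. Cxcl9, Cxcl10 and Cxcl13 lie on chromosome 5, as does Cd36. In RefSeq order they are protein-coding genes 545, 547 and 589 of that chromosome, and Cd36 is gene 91. Cxcl1 and Ccl24, also on chromosome 5, did not pass.

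The ligands anchored in the cell membrane rose by small amounts that depended on single arrays. Cxcl16, a ligand of Cxcr6 and a scavenger receptor for oxidised lipoprotein, measured 7.37, 7.38 and 7.21 on the null arrays and 6.46, 6.73 and 7.01 on the wild type arrays. The groups lay 0.20 apart at their closest, and Cxcl16 rose by 0.59 ± 0.16 log2 (SE, adjusted p = 0.0465). Leaving out wild type replicate 3 kept that call, and leaving out any other single array ended it (adjusted p between 0.0644 and 0.156), with neqc and an offset of 16 (adjusted p = 0.0583) and without background correction (adjusted p = 0.0586). A second Cxcl16 probe was detected on no array. Cx3cl1, or fractalkine, the ligand of Cx3cr1 that holds monocytes to endothelium, measured 7.30, 7.74 and 7.49 on the null arrays and 6.997, 6.74 and 7.08 on the wild type arrays. It rose by 0.57 ± 0.15 (adjusted p = 0.0493). Leaving out null replicate 1 kept its call, and leaving out any other single array ended it (adjusted p between 0.0564 and 0.199), with neqc and an offset of 16 (adjusted p = 0.0611) and without background correction (adjusted p = 0.0617).

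**Figure D2:**
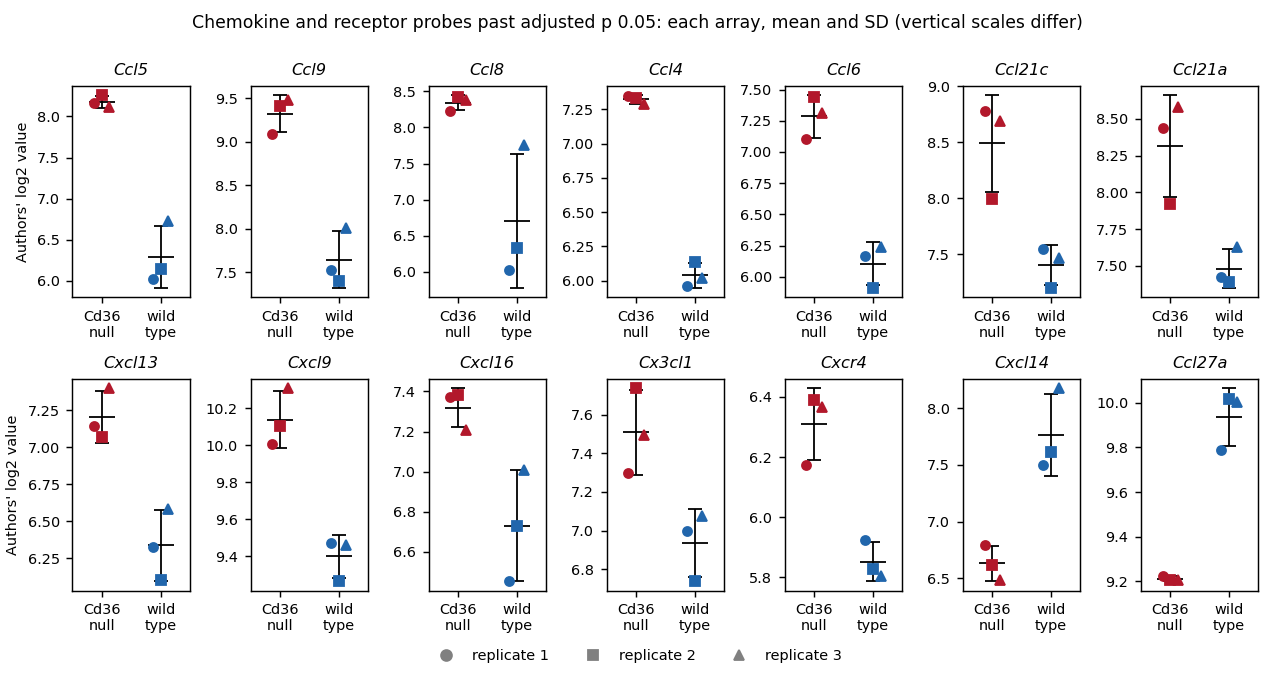
Authors' log2 values of the 14 member probes past the threshold on each array (vertical axis, with a scale of its own in each panel), Cd36 null in red and wild type in blue, with the mean and SD of 3 arrays in black and a symbol per replicate number. The null arrays lie wholly above wild type in 12 panels and wholly below in the panels of Cxcl14 and Ccl27a, and wild type replicate 3 is close to the null arrays for Ccl8.

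Cxcl14 and Ccl27a, ligands made constantly in epithelia, were the members that fell. Cxcl14 measured 6.80, 6.62 and 6.49 on the null arrays and 7.50, 7.61 and 8.17 on the wild type arrays. The groups lay 0.70 apart at their closest, and Cxcl14 fell by 1.13 log2 units (SE 0.18, limma adjusted p = 0.00507). Its second probe pointed the same way, at -0.47 ± 0.14 with no overlap between the groups, and did not pass (adjusted p = 0.0768). Ccl27a, a Ccr10 ligand best known from keratinocytes, measured 9.22, 9.21 and 9.21 on the null arrays and 9.79, 10.02 and 10.005 on the wild type arrays. The null values were nearly equal, and Ccl27a fell by 0.72 log2 units (SE 0.12, limma adjusted p = 0.00594). Its dimmer probe differed by -0.74 ± 0.21 (adjusted p = 0.0637), again with no overlap. Mouse chromosome 4 carries further copies of the Ccl27a region, so the signal of its probes may include them.

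The brightest member was Cxcl12, the Cxcr4 ligand of stromal and endothelial cells, and it did not pass. Its brightest probe measured 11.44, 11.20 and 11.67 on the null arrays and 11.82, 11.76 and 11.74 on the wild type arrays. All null arrays were below wild type, with a difference of -0.34 ± 0.14 log2 (SE, adjusted p = 0.200). Its 2 other tested probes differed by -0.26 and -0.06 with overlapping groups, and 2 more were detected on no array. Ccl25, the Ccr9 ligand of thymus and gut, measured 6.87, 7.12 and 6.97 on the null arrays and 7.23, 7.35 and 7.65 on the wild type arrays by its brightest probe. The difference was -0.42 ± 0.14 (adjusted p = 0.115), and its other probes differed by -0.29 and -0.02.

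Ccl11, Ccl24, Ccl7 and Ccl12 did not pass. Ccl11, or eotaxin, measured 7.83, 8.26 and 8.28 on the null arrays and 7.82, 8.12 and 8.66 on the wild type arrays, which overlapped, and differed by -0.08 ± 0.21 log2 (SE, adjusted p = 0.881). Its dimmer probe differed by -0.23. Ccl24, another Ccr3 ligand, differed by -0.22 ± 0.14 (adjusted p = 0.398) and was the 1 member probe detected on fewer null than wild type arrays, 2 against 3. Ccl7, a Ccr2 and Ccr3 ligand, differed by 0.25 ± 0.14 (adjusted p = 0.372), and Ccl12, a mouse Ccr2 ligand, by -0.08 ± 0.19 (adjusted p = 0.853). Without wild type replicate 3 the differences of Ccl11 and Ccl12 were 0.15 and 0.13, and with median scaling 0.08 and 0.01. Cxcl1, the neutrophil attractant that binds Cxcr2, measured 6.55, 6.10 and 6.74 on the null arrays and 5.86, 5.98 and 5.99 on the wild type arrays. With detection on 3 null and 0 wild type arrays, the null mean of Cxcl1 was at least 1.29-fold higher. Its difference did not pass (adjusted p = 0.0927). Cxcl1 passed without null replicate 2 (adjusted p = 0.03) and with trend and robust estimation (adjusted p = 0.0421). Such bounds set the null mean against wild type values raised to the lowest signal among detected probes of each array. They describe the measured means and leave out the spread between arrays.

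Receptor transcripts were few and dim. Of 18 receptor genes, 12 were detected on no array, and 3 were tested. Cxcr4, the receptor of Cxcl12, measured 6.17, 6.39 and 6.37 on the null arrays and 5.93, 5.83 and 5.80 on the wild type arrays. It was detected on every null array and no wild type array, had a null mean at least 1.16-fold higher, and passed narrowly (adjusted p = 0.0493). Its fitted difference was 0.46, or 1.00 with neqc and an offset of 16. Leaving out null replicate 1 kept that call, and every other omission of 1 array ended it (adjusted p between 0.0885 and 0.168) and with a detection p under 0.01 as the filter (adjusted p = 0.0515). Cxcr3, the T cell and NK cell receptor of Cxcl9 and Cxcl10, measured 6.25, 6.39 and 6.20 on the null arrays and 5.82, 5.88 and 5.91 on the wild type arrays. Detection was again on 3 null and 0 wild type arrays. The null mean of Cxcr3 was at least 1.13-fold higher, and its difference did not pass (adjusted p = 0.0667). It passed under 5 alternatives, among them neqc with an offset of 16 (adjusted p = 0.0126) and median scaling (adjusted p = 0.0338). Cx3cr1, the fractalkine receptor of monocytes and resident macrophages, differed by 0.12 ± 0.12 log2 (SE, adjusted p = 0.614) and was detected on 3 null arrays and 1 wild type array.

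The other receptors had only scattered detection. Ccr6, a receptor of B cells and T cells, was detected on 2 null and 0 wild type arrays. Ccr7, the receptor of Ccl19 and Ccl21, and Cxcr5, the receptor of Cxcl13, were each detected on 1 null and 0 wild type arrays. Ccr1, Ccr1l1, Ccr2, Ccr3, Ccr4, Ccr8, Ccr9, Ccr10, Cxcr1, Cxcr2, Cxcr6 and Xcr1 were detected on no array, which says that their probes were not above background and not that the transcripts were absent.

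Over all members, detection was more frequent on the null arrays, where the detection floor was also lower. The lowest value of a detected probe was 6.005 to 6.043 log2 on the null arrays and 6.096 to 6.101 on the wild type arrays, so a value between these floors, as on null replicates 2 and 3 of the second Ccl4 probe, counts as detected on null arrays only. Each null array detected 37 member probes, against 23, 27 and 29 on wild type replicates 1 to 3. Of the 79 probes, 21 were detected on more null than wild type arrays and 1 on fewer. Over all 45267 probes the corresponding counts were 5164 and 2147. At gene level, 24 members were detected on every null array by some probe and 14 on every wild type array. Ccl2, Ccl3, Cxcl17 and Xcl1 were each detected on 1 null and 0 wild type arrays. The ligands Ccl1, Ccl17, Ccl20, Ccl22, Ccl26, Ccl28, Cxcl2, Cxcl3, Cxcl11 and Cxcl15 were detected on no array. In all, 22 genes were detected on none and 7 on at most 2 arrays.

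**Figure D3:**
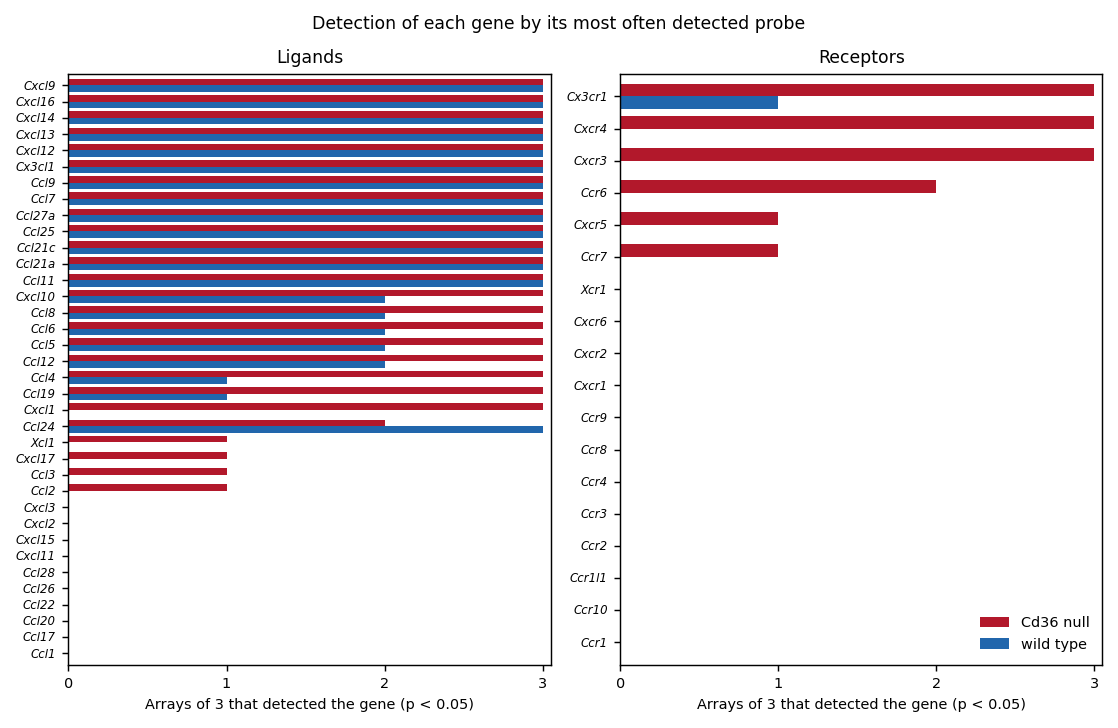
Number of arrays out of 3 (horizontal axis) on which each of the 54 member genes was detected by its most often detected probe (the detection floor was lower on the null arrays), with Cd36 null in red above wild type in blue, for ligands on the left and receptors on the right. No receptor was detected on all 3 wild type arrays, and Ccl24 is the gene with fewer null than wild type arrays.

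Most tested member probes did not overlap between genotypes. In 17 of the 33 probes all null arrays lay above all wild type arrays, against 13.6% of all tested probes, and in 7 all lay below, against 13.8%. Since a probe could enter the test through the null arrays alone, the split is also given for the 20 member probes detected on all 6 arrays, where 8 lay above (12.5% of all such probes) and 7 below (15.6%). Of the probes without overlap, 5 higher and 5 lower did not pass, among them those of Ccl19, Cxcl1, Cxcl10, Cxcr3, Cxcl12 and Ccl25.

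Genes that work with chemokines were counted by the brightest tested probe of each gene, where 6.36% of all 10151 tested genes rose and 2.91% fell. Among 8 tested genes of the wider family and its atypical receptors, 1 rose, 0 fell and 7 did not pass, with a median difference of 0.13, against -0.02 over all tested genes. The gene that rose was Ackr4, the scavenging receptor of Ccl19, Ccl21 and Ccl25, by 0.55 ± 0.15 log2 (SE, adjusted p = 0.0476), a call that ended with neqc and an offset of 16. Mif, a chemokine-like cytokine, differed by 0.37, Ccrl2, a receptor that presents chemerin, by 0.26, and the platelet chemokine Pf4 by 0.20, without passing. Among 16 tested genes of receptor signalling and cell motility, 6 rose, 0 fell and 10 did not pass, with a median of 0.15. Rgs2 and Rgs10, which switch off G proteins, rose by 1.14 ± 0.14 (adjusted p = 0.0011) and 1.00 ± 0.17 (adjusted p = 0.00633), although a second Rgs2 probe differed by 0.42 without passing. Was, an actin regulator of blood cells, rose by 0.74 ± 0.15 (adjusted p = 0.0135) and Arrb2, the arrestin that desensitises chemokine receptors, by 0.58 ± 0.13 (adjusted p = 0.0283). Was and Rac2, which also rose, were detected on 3 null arrays and 1 wild type array. Both could enter the test through the null arrays alone.

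Adhesion genes for leaving the bloodstream rose in 2 of 11 tested members, with 0 falls, 9 not passing and a median of 0.13. Vcam1, the endothelial ligand of leukocyte integrins, rose by 1.11 ± 0.18 log2 (SE, adjusted p = 0.00546). Selplg, the selectin ligand of leukocytes, rose by 1.09 ± 0.15 (adjusted p = 0.00212). Icam1 differed by 0.70 ± 0.20 (adjusted p = 0.0613) and the integrin chain Itgal by 0.35 ± 0.11 (adjusted p = 0.105), and Itgal was detected on no wild type array. Jam2, a junction protein, did not pass by its brightest probe, while its dimmest of 4 tested probes fell by 0.54. Inducers of chemokine transcription rose in 4 of 17 tested members, with 0 falls, 13 not passing and a median of 0.11. The receptor Tlr2 rose by 0.87 ± 0.13 (adjusted p = 0.00269). The interferon regulatory factors Irf7, Irf8 and Irf5 rose by 0.72 ± 0.12, 0.67 ± 0.14 and 0.57 ± 0.14 (adjusted p between 0.0064 and 0.0328). Each of these factors was detected on 3 null and 2 wild type arrays. Of the cytokines that induce many of these ligands, Tnf, Il1a, Il6 and Ifng were detected on no array by their brightest probes. Il1b was detected in both genotypes, on too few arrays to be tested. Lack of detection does not mean that the transcripts were absent.

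Genes that cut or anchor chemokines rose in 5 of 11 tested members, with 0 falls, 6 not passing and a median of 0.68. Mmp12, the macrophage metalloelastase, rose by 1.66 ± 0.15 log2 (SE, adjusted p = 0.000283) and was detected on 3 null arrays and 1 wild type array. Mmp2 and Mmp14, the gelatinase and its membrane-bound activator, rose by 1.25 ± 0.20 (adjusted p = 0.00424) and 1.08 ± 0.16 (adjusted p = 0.00349). Sdc3, a heparan sulphate proteoglycan, rose by 0.68 ± 0.13 (adjusted p = 0.011). These lists were chosen with earlier results of the same arrays known.

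Marker lists of cells that make or answer chemokines differed in how many members rose, where 6.36% of all tested genes rose and 2.91% fell. Of 12 tested macrophage markers 8 rose, and the summed linear signal of the 13 on the array lay between 8407 and 9631 on the null arrays, against 3115 to 3663 on the wild type arrays. Fcgr1 was the macrophage marker detected on no null array. Of 7 tested T cell markers 4 rose, with a summed signal of 3580 to 4308 on null and 2500 to 2839 on wild type arrays. Most of that sum was Cd8b1, and without it the sums were 1065 to 1235 on null and 847 to 902 on wild type arrays. Cd4 and Cd5 were detected on no array, Cd8a on no null array, and Cd3d, Cd3g, Cd2, Il7r, Zap70 and Lat on no wild type array. Il7r was among the 4 T cell markers that rose, and it entered the test through the null arrays alone. Cd3e, another of the 4, was detected on 3 null and 2 wild type arrays, so the null arrays alone would have admitted it. Of 10 fibroblast markers 5 rose, with summed signals of 10599 to 14138 on null and 7472 to 8661 on wild type arrays and no marker undetected. Neutrophil and monocyte markers rose in 1 of 6 tested members, with summed signals of 953 to 1173 on null and 821 to 858 on wild type arrays, and Camp, Ltf and Mpo were detected on no array. Mast cell markers rose in 3 of 5 tested members, with summed signals of 830 to 965 on null and 730 to 1033 on wild type arrays and Tpsb2 detected on no wild type array. The brightest of them, Kit, weighs most in these overlapping sums. It pointed the other way, at -0.74 ± 0.21 log2, without passing (limma adjusted p = 0.0665). Dendritic cell markers rose in 1 of 3 tested members, with summed signals of 732 to 838 on null and 596 to 605 on wild type arrays, and Clec9a, Cd209a and Itgax were detected on no array. The marker that rose, Clec10a, by 1.18 log2, was also the brightest and weighs most in these sums. Batf3 and Zbtb46 differed by 0.14 and -0.04 without passing. NK cell markers rose in 1 of 3, with summed signals of 729 to 947 on null and 738 to 897 on wild type arrays, and Ncr1, Klrb1c, Gzmb and Eomes were detected on no array. The brightest NK cell marker, Prf1, weighs most in these sums and differed by -0.04. Nkg7 rose by 0.69, and Klrd1 differed by 0.26 without passing. The part of these cells in the chemokine differences was not tested.

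Lymph node tissue, which expresses Ccl21, Ccl19 and Cxcl13, was checked by markers of its high endothelial vessels and B cells. Glycam1, Madcam1 and Chst4 were detected on none of the 6 arrays, with summed signals of 171 to 177 on null and 170 to 176 on wild type arrays. Probes at background give similar sums whatever the tissue holds, so these values do not show that lymph node tissue was absent or equal between genotypes. Of 7 B cell markers, 2 were tested and neither passed, Ms4a1, Blk, Pax5 and Cr2 were detected on no array, and the summed signal lay between 455 and 478 on null and 434 and 474 on wild type arrays. None of 9 tested endothelial markers passed, with summed signals of 8972 to 11052 on null and 10784 to 11042 on wild type arrays. Kdr was the endothelial marker detected on no array.

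The tissue label was checked with 11 brown adipocyte markers, all detected on all 6 arrays, of which 0 rose and 1 fell. Their summed signal lay between 122698 and 135319 on the null arrays and between 125473 and 139428 on the wild type arrays. Transcripts of other tissues were present in both genotypes and uneven among the null arrays. On the wild type arrays the summed signal of skeletal muscle markers was similar in size to that of the brown adipocyte markers. The mean log2 level of 11 hepatocyte markers exceeded the wild type mean by 3.03, 0.87 and 1.23 on null replicates 1 to 3, with summed signals of 2418 to 20219 on null and 803 to 1359 on wild type arrays and Alb and Fgb detected on no array. That of 11 skeletal muscle markers stood at 0.54, -0.01 and -1.84 relative to the wild type mean, with summed signals of 42295 to 171782 on null and 121926 to 126460 on wild type arrays and every marker detected. The hepatocyte list was above the wild type mean on all 3 null arrays, and its part in the chemokine differences was not tested.

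**Figure D4:**
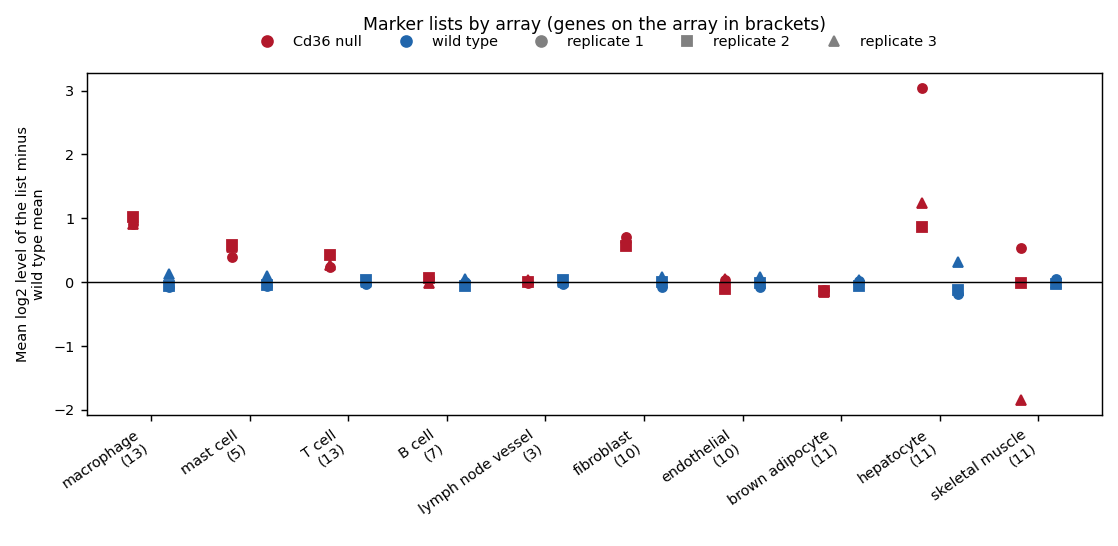
Mean log2 level of each marker list on each array minus the wild type mean (vertical axis), Cd36 null in red on the left and wild type in blue on the right of each list, with a symbol per replicate number and the number of genes on the array in brackets. The macrophage list is between 0.90 and 1.03 on the null arrays, and hepatocyte and muscle lists differ among the null arrays. Lymph node vessel markers stay near 0 but were detected on no array.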

How the data were processed

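Brown adipose tissue RNA was measured on Illumina bead arrays, 3 Cd36 null and 3 wild type. Per the file headers, the deposited scanner table holds a linear intensity and a detection p-value for each probe and array. The authors' table holds log2 values, whose steps no header or label records; the submitters' processing notes name limma without a version. Set against the scanner values, this table fixed its own scale and direction, with column medians of 5.92 to 5.93, and it was used for the comparison. Of its probes, 34875 had 1 gene symbol, 18 several and 10374 none listed; no member was among the 18, and 970 scanner probes are missing from it. Each probe was fitted by genotype with limma 3.58.1 (lmFit, then eBayes) under R 4.3.3, adjusted by Benjamini-Hochberg. The fit was tested on simulated data. A gene with several probes was described by its brightest. Every member with a tested probe is named with its value, and up to 4 genes of smallest p in each related list. The members and lists were chosen with earlier results of these data known. Alternatives were neqc with an offset of 16, no background correction, median scaling, other filters, array weights, trend and robust estimation, a replicate block and each array left out. Probe and protein sequences were not used here.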

Additional observations from a re-analysis of the deposited data

How the results depend on the processing

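With only 3 arrays per genotype, and most members near background, small differences of dim probes depend on the settings. Of the 14 member calls, 5 (Ccl4, Ccl5, Ccl6, Ccl9 and Ccl27a) kept their direction and passed under every one of the 15 alternatives in which they were tested; Ccl4, Ccl5 and Ccl6 were not tested when detection on all 6 arrays was required. The count of 14 member probes became 7 with no filter on detection and 9 with detection on all 6 arrays, and 7 to 14 when single arrays were left out. Over all probes the count of 1470 became 849 with no filter, 2626 with array weights, and 670 to 1341 when single arrays were left out; it was 856 without wild type replicate 1 and 852 without null replicate 2. Median scaling moved the share of higher calls over all probes to 85.9% (1508 higher, 247 lower) from 65.3% (960 higher, 510 lower) and the median difference of all tested probes to 0.08 from -0.04. Ccl11 changed sign, at 0.0766 with median scaling, 0.0454 with array weights and 0.07 without null replicate 1 (-0.27 to 0.15 when single arrays were left out), and so did Ccl12, at 0.0144 with median scaling and 0.0743 with array weights (-0.24 to 0.13 when single arrays were left out). None of these sign changes passed. With no filter, the calls of Ccl21a, Ccl21c, Ccl8, Cxcl13, Cxcl14, Cxcl16, Cx3cl1 and Cxcr4 ended and Cxcr3 passed; the cause was not tested. The count of the wider family list became 0 instead of 1 with neqc and an offset of 16. Deviations of same-numbered arrays correlated at 0.12, -0.02 and 0.05, and 3 of 6 arrays correlated best with their own number. With 3 arrays per genotype, such values cannot decide whether the replicate numbers mark a pairing. With the replicate block 12 member probes and 1326 of all probes passed; the calls of Cxcl16, Cx3cl1 and Cxcr4 ended, and Cxcl10 passed.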
